A study of Homo sapiens with 9 samples.

Results

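The cytosolic ribosomal proteins are the proteins of the translating ribosome outside mitochondria, and their mRNAs were followed here in human renal carcinoma cells given the respiratory complex I inhibitor piericidin A. Members were the protein-coding genes of the deposited log2 table whose symbol follows the RPL or RPS naming pattern, including RPLP0, RPLP1, RPLP2 and RPSA. That gave 81 of 18859 genes, 49 of the large subunit (RPL) and 32 of the small subunit (RPS). FAU also encodes a ribosomal protein but carries another name, and it is described separately. The cells were ACHN, an adherent line from a human renal cell carcinoma, kept in MEM medium on plates. Each of the 3 groups has 3 libraries: cells given 0.1% DMSO as the vehicle control, cells given piericidin A at 25 nM, and cells given the same compound at 50 nM. The labels do not say whether the piericidin A cells also received DMSO, nor how long the treatment lasted. They also do not say whether the libraries of a group came from separate cultures, so p-values measure only the spread between these libraries, which may be technical.

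A ribosome joins a small subunit, which reads the mRNA, with a large subunit, which forms the peptide bond, and each subunit is an RNA core covered by ribosomal proteins that are needed in about equal numbers. Most mRNAs for these proteins start with a cytosine followed by a run of pyrimidines, the terminal oligopyrimidine (TOP) tract. Through this tract mTORC1 and the binding protein LARP1 control their translation and stability, and genes of several translation factors share it. The experiment asked how renal carcinoma cells respond to piericidin A at either dose, and the data bear on mRNA levels and not on translation or on protein.

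The start sites show how general this tract is among the members. RefSeq promoter entries (GRCh38.p14) were found for 64 of the 81 genes, with 79 start sites. A cytosine followed by at least 4 further pyrimidines (C or T), read on the gene's strand from the first transcribed base, was present at 46 of the 79 sites, or 58.2%, in 46 genes. Among all 35116 promoter entries 4.07% had it. The lines below give 30 bases before and 20 bases from the start, 5′ to 3′ on the gene's strand, with the pyrimidine tract in capitals. RPLP2, RPL35 and RPS15 are shown because they were among the genes with the largest differences at 50 nM, RPSA because it differed in opposite directions at the 2 doses, RPL6 because its mean was below that of DMSO at both, and RPS10 and RPL26 as genes of low level, of which RPS10 passed the filter on low values only through piericidin A libraries. EEF1A1 and EEF2, translation elongation factors, are shown for their tracts of the same kind.
RPLP2, chr11:809937-809986, plus strand: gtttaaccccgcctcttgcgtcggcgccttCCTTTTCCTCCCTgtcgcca
RPL35, chr9:124861938-124861987, minus strand: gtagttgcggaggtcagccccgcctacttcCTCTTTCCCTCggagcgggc
RPS15, chr19:1438366-1438415, plus strand: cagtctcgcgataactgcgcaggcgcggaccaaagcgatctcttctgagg
RPSA, chr3:39406690-39406739, plus strand: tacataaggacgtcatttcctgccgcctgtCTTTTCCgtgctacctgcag
RPL6, chr12:112409266-112409315, minus strand: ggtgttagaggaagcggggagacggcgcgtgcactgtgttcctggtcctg
RPS10, chr6:34426050-34426099, minus strand: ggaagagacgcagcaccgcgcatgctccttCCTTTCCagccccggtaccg
RPL26, chr17:8383174-8383223, minus strand: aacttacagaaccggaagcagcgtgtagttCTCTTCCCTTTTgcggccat
EEF1A1, chr6:73521013-73521062, minus strand: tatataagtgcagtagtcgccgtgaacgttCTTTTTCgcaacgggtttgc
EEF2, chr19:3985444-3985493, minus strand: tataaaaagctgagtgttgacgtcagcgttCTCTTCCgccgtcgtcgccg
The RPS15 window and the RPL6 window shown, the downstream of 2 RefSeq starts of RPL6, held no tract from the first base. The tract of RPLP2 was 13 bases long, and that of RPSA was 7 bases long.

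Whole fragments could be recovered from the deposited FPKM for the 18859 genes of the log2 table, and they numbered from 24365472 to 29245674 per library. Every share of fragments below is a share of these. The markers of the cell line were checked in DMSO: the renal transcription factors PAX8 and PAX2 averaged 71.3 and 12.3 FPKM, whereas AQP1 of the proximal tubule averaged 0.0572 FPKM. The leukocyte marker CD68 and the endothelial markers CDH5, PECAM1 and VWF were at most 0.0379 FPKM in any library. Of the fibroblast markers COL1A1 averaged 1.72 FPKM and PDGFRB 0.697 FPKM in DMSO, and COL3A1 was listed at 0 in all DMSO libraries. Replicate 3 of the 25 nM group stood apart. It was the highest of the 9 libraries for 76 of the 80 members that could be tested, and results at 25 nM are therefore also given without it. Fragments of the mitochondrial genome took 2.53% ± 0.182 of the total in DMSO libraries, 4.36% ± 0.668 in those of 25 nM and 5.93% ± 0.831 in those of 50 nM (SD, n = 3 each).

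The mRNAs of the ribosomal proteins were among the most abundant in the cells, and their share of the recovered fragments was larger in both piericidin A groups. The 81 genes held 6.87%, 6.88% and 6.78% of the recovered fragments in the DMSO libraries, 8.27%, 8.05% and 9.37% at 25 nM, and 7.55%, 8.14% and 8.05% at 50 nM. Every piericidin A library was above every DMSO library, and the 2 doses overlapped. The means were 6.84% ± 0.0553, 8.56% ± 0.707 and 7.91% ± 0.315 (SD, n = 3 each) in that order. The difference was 1.72 percentage points at 25 nM and 1.07 at 50 nM, each with p = 0.1 in an exact two-sided permutation test, the smallest p that 3 against 3 libraries allow (0.15 after Benjamini-Hochberg adjustment over 3 comparisons). For 50 nM minus 25 nM the difference was -0.65 points, with p = 0.2 in the same exact permutation test (0.2 after adjustment). Without replicate 3 the 25 nM difference was 1.32 points. In bulk RNA, fewer cells of a type and less RNA per cell cannot be told apart, and a share or an FPKM is a relative level in either case.

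Both subunits had larger shares in the piericidin A groups. Small-subunit genes held 2.70% ± 0.0221 of fragments in the DMSO group, 3.39% ± 0.284 in the 25 nM group and 3.09% ± 0.131 in the 50 nM group (SD, n = 3 each). Large-subunit genes held 4.14% ± 0.0336 in DMSO, 5.17% ± 0.423 at 25 nM and 4.82% ± 0.184 at 50 nM. The ratio of large-subunit to small-subunit fragments was 1.54 ± 0.00297 in DMSO, 1.53 ± 0.00568 at 25 nM and 1.56 ± 0.0108 at 50 nM. The groups did not overlap in this ratio, although the largest difference, 50 nM minus 25 nM, was 0.0312, and each pair gave an exact two-sided permutation p = 0.1 (0.1 after adjustment over the 3).

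**Figure D1:**
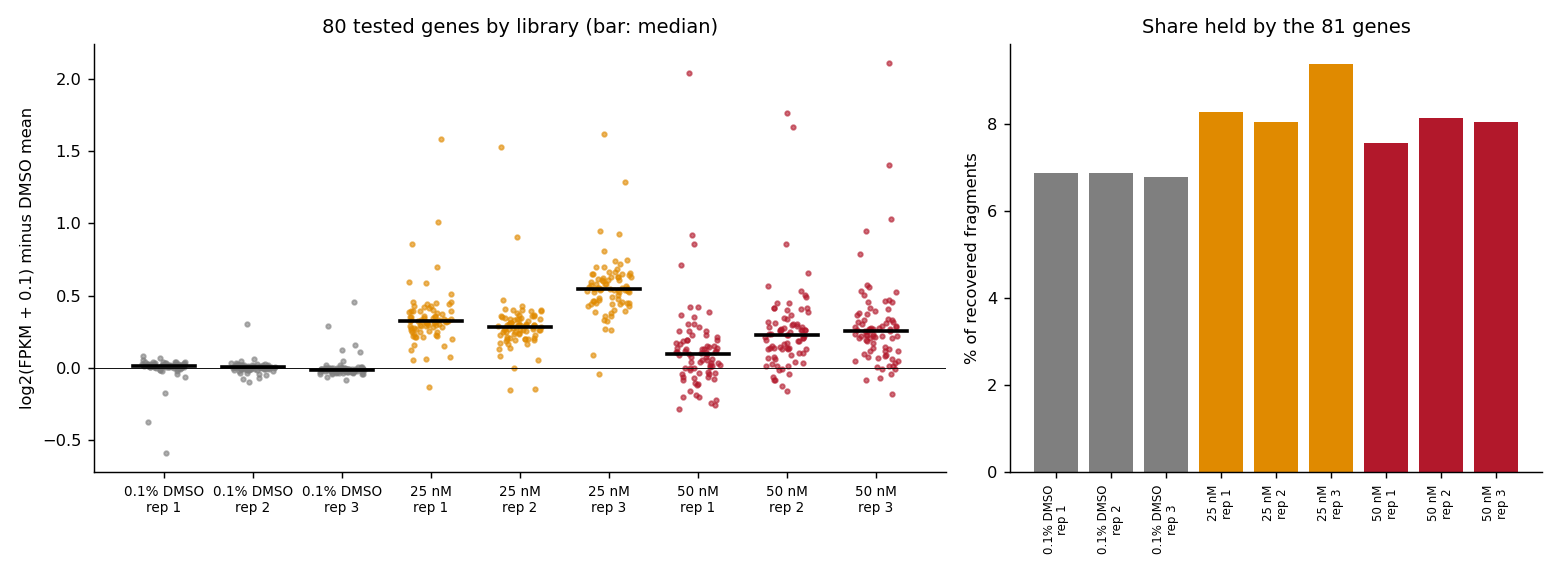
Left, each of the 80 tested ribosomal protein genes in each library as log2(FPKM + 0.1) minus its DMSO mean, with a bar at the median; right, the percentage of recovered fragments held by the 81 genes. The median sits at 0.32, 0.28 and 0.55 in the 25 nM libraries and at 0.09, 0.23 and 0.25 in the 50 nM libraries, against -0.01 to 0.01 in the DMSO libraries.

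Levels spanned a wide range. FPKM is the fragment number scaled to gene length and to a library size. The library divisor in the deposited FPKM was not the recovered total. It was 0.988 to 0.999 times that total in DMSO, 0.957 to 0.988 times at 25 nM and 1.03 to 1.06 times at 50 nM. FPKM also divides by the length that the authors assigned to a gene. That length was 1 to 33.1 times the length of the gene's principal transcript in GENCODE release 29, with a median of 3.36, so the order of levels depends on it. On the authors' scale the highest DMSO means belonged to RPS27, a zinc-binding small-subunit protein (1570 ± 34.2 FPKM), RPS2 (1442 ± 22.4), RPS12 (1318 ± 14.3), RPL41, the smallest ribosomal protein (1103 ± 16.9), and the stalk protein RPLP0 (958 ± 9.99; SD, n = 3 each). The DMSO libraries of genes next to each other in this order did not overlap. RPS29 had the largest length ratio: it stood 70th of 81 at 44.0 FPKM, and 18th when its fragments were divided by the transcript length instead. The median DMSO mean of the 81 genes was 224 FPKM.

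A gap in the levels separated 70 genes, at 44.0 FPKM and above, from 11 genes at 15.8 FPKM and below. The 11 were RPS27L, RPL23A, RPL30, RPL39L, RPS15A, RPS23, RPL26, RPL36A, RPS10, RPL17 and RPL3L, and they also filled the last 11 places when the transcript length was used. Some are paralogs with restricted use: RPL3L replaces RPL3 in striated muscle, and RPL39L is a copy of RPL39 known from the testis. RPL3L had 12, 7 and 9 fragments in the DMSO libraries and failed the filter on low values. RPS27L is a copy of RPS27, and the remaining 8 encode standard components of the ribosome. RPL17 had only 4, 13 and 14 fragments in the DMSO libraries, RPS10 had 9, 12 and 21, and RPL36A had 34, 40 and 49.

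How reads that fit several genes were counted was not given in the sources used here. In GENCODE release 29, RPS10-NUDT3 covers 55.6% of the RPS10 exon bases on the same strand, RPL17-C18orf32 covers 47.6% of those of RPL17, RPL36A-HNRNPH2 covers 26.6% of those of RPL36A, and AC135178.2 covers 22% of those of RPL26. None of the 4 overlapping genes had a row in the log2 table. The pseudogene of RPL17 held 4.03 times the fragments of RPL17 in DMSO, and the ratio was 0.741 for the 5 pseudogenes of RPL23A, 0.424 for RPL26 and 0.333 for RPS10. The values of these genes are therefore uncertain, and their part in the differences below was not tested. RPL17, RPS10 and RPL36A reached the filter of 0.5 FPKM in 3 libraries only through piericidin A libraries. The filter therefore favoured values above DMSO in them, and their calls against DMSO are not independent of it. Counts over the 80 tested genes include these 3, and counts over the remaining 77, a choice made after the data were seen, are given beside them.

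**Figure D2:**
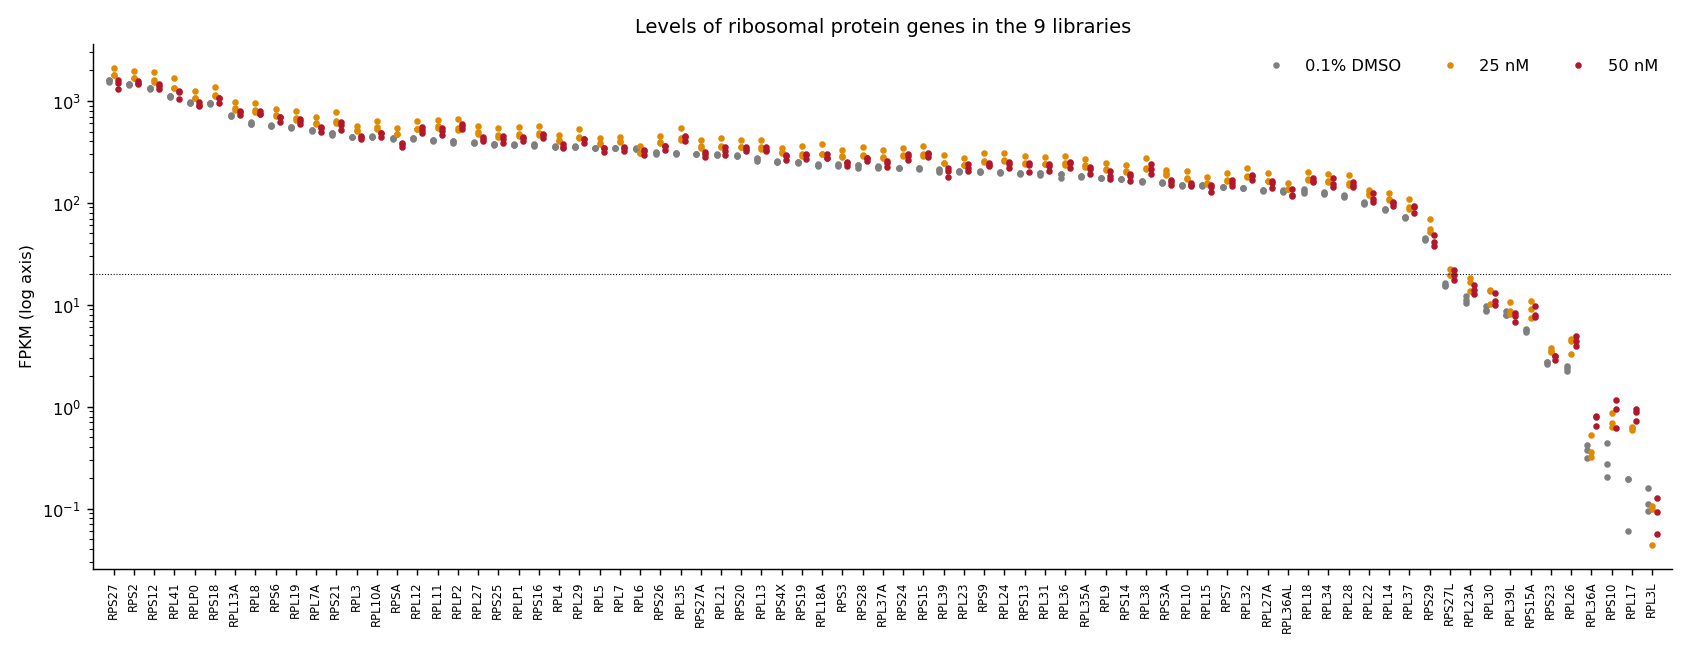
FPKM of ribosomal protein genes in the 9 libraries (log axis), ordered by the DMSO mean; points are single libraries and the dotted line marks 20 FPKM. For most of the genes above the line the 25 nM points lie highest, and the 11 genes below it are set apart by a gap between 44.0 and 15.8 FPKM.

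At 25 nM nearly every ribosomal protein mRNA rose by a similar, small amount. Of the 80 tested genes 75 rose, none fell and 5 did not pass an adjusted p of 0.05 in limma, where 26.3% of all 15541 tested genes were called higher and 25.8% lower, 52% in either direction. Without the 3 genes that passed the filter only through piericidin A libraries, 73 of 77 rose. All 32 small-subunit genes rose, and 43 of the 48 tested large-subunit genes did. The median log2 fold change of the members was 0.39 (interquartile range 0.31 to 0.45), against 0.02 over all tested genes. It was 0.19 over the 2931 shortest tested coding genes by the authors' gene length, of which 1318 were called higher and 385 lower. In 77 of the 80 genes every 25 nM library was above every DMSO library, which held for 31.5% of all tested genes (31.1% were below, 62.6% in either direction), and in none were they all below. Without replicate 3, 73 genes rose, RPL6 fell, and the median was 0.30. Of the 75 calls, 70 held whichever library was left out, and those of RPL5, RPLP0, RPS27, RPSA and RPL30 did not.

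At 50 nM fewer of the genes rose. There, 41 of the 80 genes rose, RPSA fell and 38 did not pass, where 29.2% of all tested genes were called higher and 31.5% lower, 60.7% in either direction. Without the 3 genes that passed the filter only through piericidin A libraries, 38 of 77 rose. The median over the 80 was 0.19 (interquartile range 0.07 to 0.30). It was 0.0049 over all tested genes and 0.08 over the 2931 shortest tested coding genes, of which 1042 were called higher and 658 lower. Over the 70 members at 20 FPKM or more the SD of the fold changes was 0.15, against 0.10 at 25 nM. In 54 genes every 50 nM library was above every DMSO library, which held for 33.9% of all tested genes. In RPSA and RPL6 every 50 nM library was below every DMSO library, which held for 36.5%, and 70.4% did not overlap in either direction. The count of 41 rested on all libraries: it was 26, 24 and 24 without DMSO replicates 1, 2 and 3, 47 without 50 nM replicate 1, and 23 and 24 without 50 nM replicates 2 and 3. It was 28 with no filter on low values and 57 with libraries scaled by fragment totals. Scaling by totals without the members and the mitochondrial genes, which moved the median of all genes by 0.14, gave 66 that rose and none that fell.

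Between the doses the genes that passed were nearly all lower at the higher dose. At 50 nM against 25 nM 30 genes fell, RPL36A rose and 49 did not pass, where 14.7% of all tested genes were called higher and 18.8% lower, 33.5% in either direction. RPL36A is one of the 3 genes that passed the filter only through piericidin A libraries, and over the remaining 77 genes 30 fell and 0 rose. The median was -0.20, against -0.01 over all tested genes and -0.06 over tested coding genes. Over the 2931 shortest tested coding genes it was -0.11, and 752 of them were called lower. Over 11685 coding genes this fold change had a Spearman rho of -0.43 with the DMSO level, with no test. Every 50 nM library was below every 25 nM library in 40 genes, which held for 24.4% of all tested genes, and above in RPL17 and RPL36A, which held for 21% (45.4% in either direction). The count of 30 was 24 without 25 nM replicate 3, 11 without 50 nM replicate 1 and 20 without 50 nM replicate 2, and 11 of the 31 calls held whichever library was left out. It was 13 and 6 under the 2 scalings by fragment totals, 12 when only the libraries of these 2 doses were fitted, 19 with no filter and 50 with limma voom on recovered fragments. The median was -0.10 and -0.08 under the 2 scalings by fragment totals, which moved the median of all tested genes up by 0.09 and 0.11.

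Put together, 40 genes rose at both doses, and 34 rose at 25 nM and did not pass at 50 nM. RPSA rose at 25 nM and fell at 50 nM. RPL36A, which passed the filter only through piericidin A libraries, was called at 50 nM only. RPL6, RPL15, RPL36AL and RPL39L passed at neither dose. The difference between the 2 doses was itself called for 29 of the genes that rose at 25 nM. By group means, 63 of the 80 genes had their highest level at 25 nM, a middle level at 50 nM and their lowest level in DMSO. In 12 genes the 50 nM mean was the lowest and the 25 nM mean the highest. RPL17, RPS10, RPL26 and RPL36A, all among the 11 genes of low level, were the 4 whose means increased from DMSO over 25 nM to 50 nM, and RPL6 was the only one of the 80 whose means decreased in that order. The 2 doses share the DMSO libraries, so their fold changes are not independent of each other. The shares of all tested genes with these joint calls and mean orders were not counted. The patterns are therefore not shown to be particular to the members. The 25 nM means include replicate 3, the highest library for most members.

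**Figure D3:**
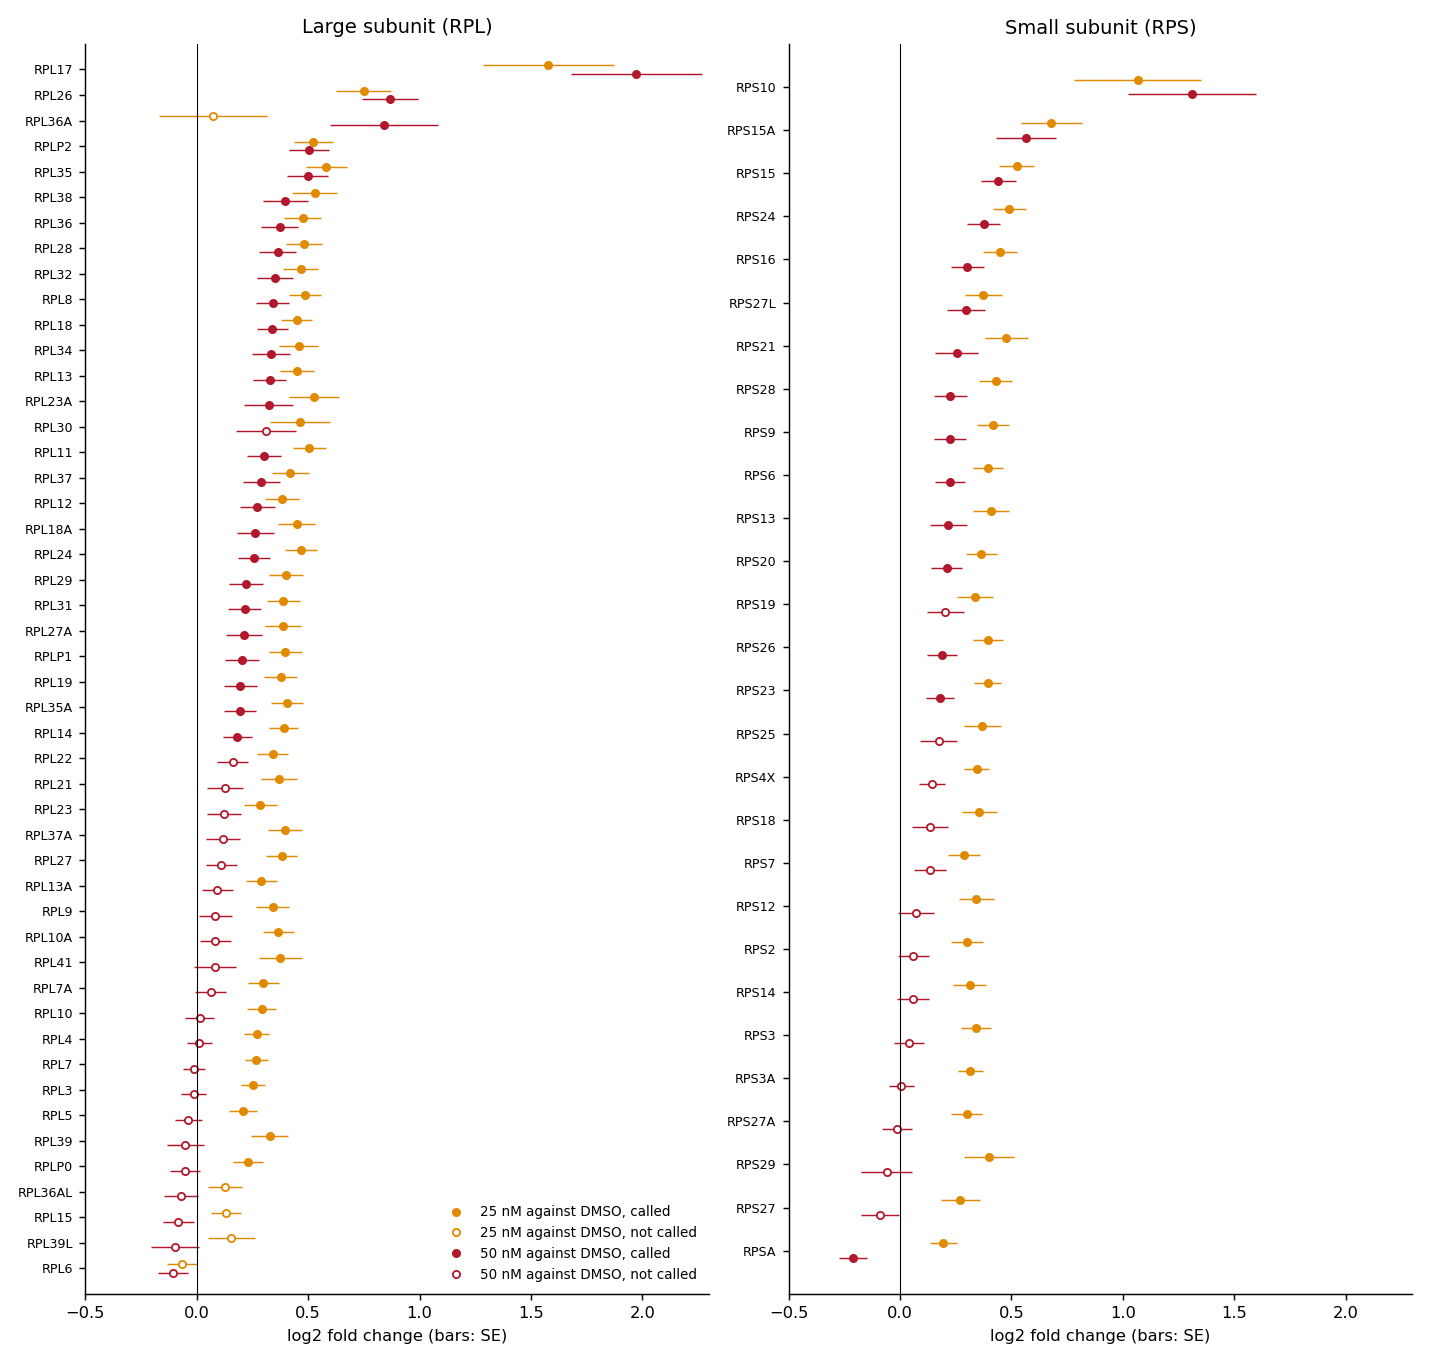
Log2 fold change against DMSO of tested genes at 25 nM (orange) and 50 nM (red), large subunit left and small subunit right, with bars for the SE; filled points passed an adjusted p of 0.05. At 25 nM the filled points gather around the median of 0.39, while at 50 nM those of the genes at 20 FPKM or more in DMSO spread from RPSA at -0.21 to RPLP2 at 0.50. The 50 nM points of RPL17, RPS10 and RPL36A, at 1.97, 1.31 and 0.84, belong to genes that passed the filter only through piericidin A libraries. Scaling by totals without the members and the mitochondrial genes puts the median at 0.34 for 50 nM.

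In the large subunit RPLP2 and RPL35 had the largest fold changes at 50 nM outside the 11 low-level genes. RPLP2 is one of the acidic proteins of the stalk, the arm that recruits elongation factors. RPLP2 stood at 402, 402 and 385 FPKM in the DMSO libraries, at 538, 517 and 664 at 25 nM and at 532, 586 and 570 at 50 nM. All piericidin A libraries were above all DMSO libraries, and the doses overlapped. It rose by 0.52 ± 0.09 (SE) on the log2 scale at 25 nM (adjusted p = 0.0011) and by 0.50 ± 0.09 at 50 nM (adjusted p = 0.00095), and 50 nM against 25 nM gave -0.02 (adjusted p = 0.89).

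RPLP1, its partner in the stalk, rose by 0.40 ± 0.07 at 25 nM and by 0.20 ± 0.07 at 50 nM (adjusted p = 0.002 and 0.041). The 50 nM call was lost with no filter on low values and in 5 of the 6 omissions of a library, with 0.122 as the highest adjusted p. RPLP0, the base to which both bind, stood at 969, 953 and 951 FPKM in DMSO, 1063, 1074 and 1244 at 25 nM, and 891, 975 and 904 at 50 nM. Its 25 nM libraries were the highest, and its 50 nM libraries overlapped DMSO. RPLP0 rose by 0.23 ± 0.07 at 25 nM (adjusted p = 0.018, and 0.057 at most with a library left out), and its value at 50 nM was -0.05 ± 0.07 (adjusted p = 0.51). The differences between the 3 stalk genes were not tested.

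RPL35, a protein near the exit of the peptide tunnel, stood at 311, 302 and 306 FPKM in DMSO, 436, 412 and 537 at 25 nM, and 400, 444 and 456 at 50 nM. Every piericidin A library was above every DMSO library. It rose by 0.58 ± 0.09 at 25 nM (adjusted p = 0.00081) and 0.50 ± 0.09 at 50 nM (adjusted p = 0.0014). RPL38 rose by 0.53 ± 0.10 and 0.40 ± 0.10 at the 2 doses (adjusted p = 0.0022 and 0.0077).

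RPL3, RPL4 and RPL7, proteins of the large subunit, rose at 25 nM, and none of the 3 passed at 50 nM against DMSO. RPL3, which lies next to the peptidyl transferase centre, stood at 447, 440 and 441 FPKM in DMSO, 514, 502 and 569 at 25 nM, and 423, 453 and 439 at 50 nM. Libraries of 25 nM were above all others, and 50 nM overlapped DMSO. RPL3 rose by 0.25 ± 0.05 at 25 nM (adjusted p = 0.004), gave -0.01 ± 0.05 at 50 nM (adjusted p = 0.83), and fell by 0.27 on the log2 scale at 50 nM against 25 nM (adjusted p = 0.0059). RPL4 and RPL7 had log2 fold changes of 0.27 each at 25 nM, 0.01 and -0.01 at 50 nM, and -0.26 and -0.28 between the doses (adjusted p = 0.0086 and 0.0034 for the last). The calls of RPL3 and RPL4 between the doses were lost under scaling by totals without the members and the mitochondrial genes, at -0.15 and -0.14. RPL39, a short protein lining the tunnel, had 0.33 at 25 nM, -0.05 at 50 nM and -0.38 between the doses (adjusted p = 0.0097, 0.62 and 0.0089).

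RPL5 and RPL11 bind 5S rRNA together, and the complex is known to inhibit MDM2 and so to stabilise p53 when ribosome assembly is disturbed. RPL11 stood at 411, 409 and 406 FPKM in DMSO, 561, 537 and 648 at 25 nM, and 466, 509 and 537 at 50 nM, without overlap of either dose with DMSO. RPL11 rose by 0.51 ± 0.08 at 25 nM and 0.30 ± 0.08 at 50 nM (adjusted p = 0.00058 and 0.0073). RPL5 stood at 347, 343 and 345 FPKM in DMSO, 385, 377 and 435 at 25 nM, and 317, 343 and 348 at 50 nM. Its 25 nM libraries were above all others, and its 50 nM libraries overlapped DMSO. RPL5 rose by 0.21 ± 0.06 at 25 nM (adjusted p = 0.019, and 0.0585 at most with a library left out), while 50 nM gave -0.04 ± 0.06 (adjusted p = 0.61).

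RPL6, whose window without a tract is shown above, was the only tested member with a mean below DMSO at both doses. RPL6 stood at 343, 336 and 339 FPKM in DMSO, 308, 306 and 360 at 25 nM, and 297, 319 and 329 at 50 nM. Replicate 3 was the only 25 nM library above DMSO, and all 50 nM libraries were below it. The log2 fold changes were -0.07 ± 0.07 and -0.11 ± 0.07 (adjusted p = 0.44 and 0.20), and without replicate 3 the 25 nM value was -0.14 (adjusted p = 0.025). The gene lies opposite PTPN11, whose log2 fold changes were -0.22 and -0.24 (adjusted p = 0.069 and 0.043). In the GENCODE annotation PTPN11 covers 0% of the RPL6 exon bases. Other members also lie opposite genes that rose or fell, and PTPN11 was named after its values were seen. The strandedness of the libraries was not given in the sources used here, and any part of PTPN11 in the RPL6 values was not tested.

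RPL15, RPL36AL and RPL39L were the other genes that passed at neither dose. RPL15 stood at 147, 150 and 149 FPKM in DMSO, 154, 158 and 178 at 25 nM, and 129, 144 and 149 at 50 nM, with log2 fold changes of 0.13 ± 0.07 and -0.08 ± 0.07 (adjusted p = 0.13 and 0.32). RPL36AL, an intronless copy of RPL36A, had 0.12 ± 0.08 and -0.07 ± 0.08 (adjusted p = 0.20 and 0.45). In both, every 25 nM library was above every DMSO library. RPL39L stood at 8.61, 7.93 and 7.92 FPKM in DMSO, 8.59, 8.14 and 10.7 at 25 nM, and 6.79, 8.36 and 7.73 at 50 nM, with all groups overlapping.

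In the small subunit RPS15, RPS24 and RPS16 had the largest fold changes at 50 nM outside the low-level genes. RPS15, whose tail reaches the decoding centre, stood at 220, 219 and 215 FPKM in DMSO, 299, 287 and 358 at 25 nM, and 280, 309 and 298 at 50 nM. All piericidin A libraries were above all DMSO libraries. RPS15 rose by 0.52 ± 0.08 at 25 nM (adjusted p = 0.00057) and 0.44 ± 0.08 at 50 nM (adjusted p = 0.001). RPS24 rose by 0.49 and 0.37, and RPS16 by 0.45 and 0.30. RPS6, the phosphorylation target of the S6 kinases, rose by 0.40 ± 0.07 and 0.22 ± 0.07 (adjusted p = 0.0012 and 0.018), and its 50 nM call was lost in 4 of the 6 omissions of a library.

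RPSA, which joins the small subunit late and is also known as the laminin receptor, moved in opposite directions. RPSA stood at 437, 431 and 426 FPKM in DMSO, 469, 474 and 541 at 25 nM, and 353, 386 and 380 at 50 nM. All 3 groups were apart: 25 nM was the highest and 50 nM the lowest. RPSA rose by 0.19 ± 0.06 at 25 nM (adjusted p = 0.026, lost in 3 of 6 omissions) and fell by 0.21 on the log2 scale at 50 nM (adjusted p = 0.016, lost in 2 of 6 omissions and under scaling by totals without the members and the mitochondrial genes). The fall between the doses, by 0.40 on the log2 scale (adjusted p = 0.0017), held in every omission, with 0.0082 as the highest adjusted p.

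Between the doses RPS29 fell most, followed by RPSA, RPL39, RPS27 and RPS27A. RPS27 and RPS29 are short zinc-binding proteins, and RPS27A is a fusion of ubiquitin to a ribosomal protein. RPS29 stood at 44.7, 43.3 and 44.0 FPKM in DMSO, 54.8, 51.8 and 69.1 at 25 nM, and 37.7, 41.4 and 48.2 at 50 nM. Libraries of 25 nM were the highest, and the 50 nM libraries lay on both sides of DMSO. RPS29 fell by 0.46 on the log2 scale at 50 nM against 25 nM (adjusted p = 0.015, and 0.056 without 50 nM replicate 1). RPS27 and RPS27A fell by 0.36 and 0.31 in that contrast (adjusted p = 0.013 and 0.0082). Against DMSO the 50 nM values of RPS29, RPS27 and RPS27A were -0.06, -0.09 and -0.01 (adjusted p = 0.67, 0.39 and 0.87).

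Most of the 34 genes that rose at 25 nM and did not pass at 50 nM had 50 nM values above 0. For the large subunit, 50 nM log2 fold changes not given above included those of RPL21 (0.13), RPL23 (0.12), RPL37A (0.12), RPL27 (0.11), RPL13A (0.09), RPL9 (0.08), RPL10A (0.08), RPL41 (0.08), RPL7A (0.06) and RPL10 (0.01). In the small subunit they included those of RPS25 (0.17), RPS4X (0.14), RPS18 (0.13), RPS7 (0.13), RPS12 (0.07), RPS2 (0.06), RPS14 (0.06), RPS3 (0.04) and RPS3A (0.01). RPL30 had the largest value among all 38 genes that did not pass, 0.31 ± 0.13 with an adjusted p of 0.073.

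Among the 11 low-level genes, RPS15A and RPL26 had the largest fold changes against DMSO outside RPL17, RPS10 and RPL36A. They had 969 to 1132 and 149 to 172 fragments in the DMSO libraries. RPS27L, RPL30, RPL23A, RPS23 and RPL39L also had more fragments there than RPL26. RPS15A stood at 5.64, 5.42 and 5.81 FPKM in DMSO, 9.17, 7.43 and 10.9 at 25 nM, and 7.56, 7.92 and 9.77 at 50 nM, without overlap with DMSO. RPS15A rose by 0.68 ± 0.14 and 0.57 ± 0.14 (adjusted p = 0.0029 and 0.0059). RPL26, which is also known to bind the p53 mRNA, stood at 2.5, 2.25 and 2.38 FPKM in DMSO, 4.39, 3.32 and 4.59 at 25 nM, and 3.96, 4.38 and 4.97 at 50 nM. RPL26 rose by 0.75 ± 0.12 and 0.87 ± 0.12 (adjusted p = 0.00099 and 0.00029).

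The 3 genes that passed the filter only through piericidin A libraries are given as a description, with no test. RPL17 had the largest fold changes of the tested members and the fewest fragments summed over the DMSO libraries: 4, 13 and 14 there, 38 in each 25 nM library, and 57, 46 and 63 at 50 nM. The fitted log2 fold changes were 1.58 ± 0.29 and 1.97 ± 0.29. RPS10 had 9, 12 and 21 fragments in DMSO, 28, 27 and 34 at 25 nM, and 26, 49 and 42 at 50 nM, with fitted values of 1.07 ± 0.29 and 1.31 ± 0.29. RPL36A gave 0.07 ± 0.24 at 25 nM and 0.84 ± 0.24 at 50 nM, and 0.77 between the doses. All 3 overlap readthrough genes as described above. RPL23A, RPL30, RPS23 and RPS27L rose by 0.53, 0.46, 0.39 and 0.37 at 25 nM.

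Several members have a paralog of their own that could be set beside them. RPL22L1 rose by 0.61 ± 0.07 and 0.49 ± 0.07, while RPL22 rose by 0.34 ± 0.07 at 25 nM and gave 0.16 ± 0.07 at 50 nM (adjusted p = 0.074). RPL26L1, at 26.3, 24.8 and 26.8 FPKM in DMSO the more abundant copy of its pair on this scale, rose by 0.52 and 0.40. RPS27L, a copy of RPS27 known as a p53 target, rose by 0.37 ± 0.08 and 0.30 ± 0.08 (adjusted p = 0.005 and 0.013), whereas RPS27 gave 0.27 and -0.09. RPL7L1, which acts in the nucleolus in ribosome assembly, went the other way. It stood at 18.3, 17.6 and 18.3 FPKM in DMSO, 14.3, 14.6 and 15 at 25 nM, and 13.2 in every library at 50 nM. RPL7L1 fell by 0.30 on the log2 scale at 25 nM and by 0.45 at 50 nM (adjusted p = 0.00016 and 9.8e-06). RPL39L had 0.16 and -0.10, neither of which passed (adjusted p = 0.25 and 0.45). Differences between the copies of a pair were not tested.

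A fusion gene outside the naming pattern also rose at both doses. FAU, a ubiquitin-like protein fused to a small-subunit protein, rose by 0.49 ± 0.09 and 0.33 ± 0.09 (adjusted p = 0.0017 and 0.011). Of the 9 genes most often mutated in Diamond-Blackfan anaemia, an inherited failure of red cell production, all 9 rose at 25 nM and 5 rose at 50 nM, RPS24 and RPL11 among them and RPS19 not (0.20 ± 0.08, adjusted p = 0.055). RPS10, which passed the filter only through piericidin A libraries, is one of the 9. Without it 8 of 8 rose at 25 nM and 4 of 8 at 50 nM, where 26.3% and 29.2% of all tested genes did.

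Fold changes were set beside properties of the genes over the 70 genes above 20 FPKM, with no test. The log2 fold change at 50 nM against DMSO had a Spearman rho of -0.28 with coding length and 0.43 with the GC content of the principal transcript. At 25 nM rho was -0.39 and 0.36. The genes share libraries and depth. Over all 11685 coding genes with a value rho was -0.35 for coding length and 0.25 for GC content at 25 nM. At 50 nM it was -0.23 and 0.30. With transcript length rho was -0.49 and -0.40 at 25 and 50 nM over all coding genes, and -0.25 and -0.14 over the 70 genes. For 50 nM against 25 nM the rho with coding length was -0.13 over the 70 genes and 0.18 over all coding genes. Among the 18 genes with the longest coding sequence, 645 to 1284 bases, 4 of 18 genes rose at 50 nM and 14 of 18 fell between the doses, with a median of 0.03 at 50 nM. Among the 18 shortest, 78 to 372 bases, 12 rose at 50 nM and 7 fell between the doses, with a median of 0.21. Of the 17 genes with 378 to 471 bases, 7 rose at 50 nM and 4 fell between the doses, with a median of 0.17. Of the 17 with 474 to 636 bases, 10 rose and 4 fell, with a median of 0.20. The median at 50 nM was thus lowest for the longest genes, with no steady trend over the shorter ones. The shares of all tested genes were 29.2% higher at 50 nM and 18.8% lower between the doses.

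**Figure D4:**
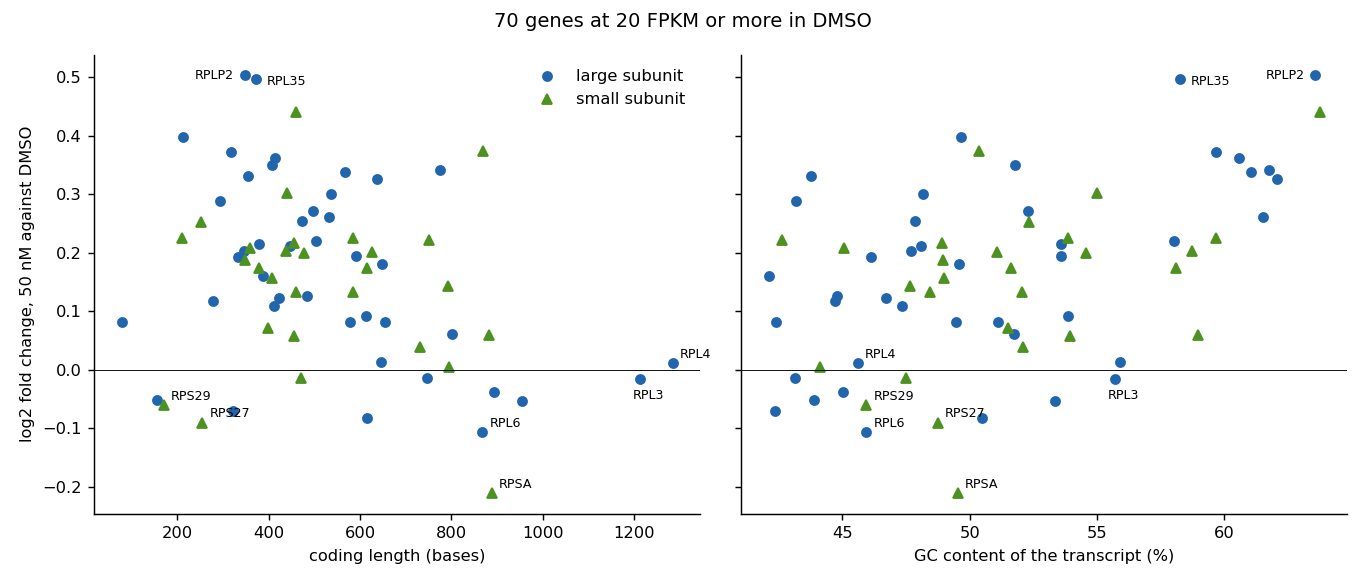
Log2 fold change at 50 nM against DMSO of the 70 genes at 20 FPKM or more in DMSO, against coding length in bases (left) and GC content of the principal GENCODE transcript in percent (right); each point is a gene. RPLP2 and RPL35 lie highest, at 0.50 each, RPSA lies lowest at -0.21, and the longest genes, RPL3 and RPL4, lie at -0.01 and 0.01.

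The members were also split by the tract at the start. The 46 genes with a tract had medians of 0.39 at 25 nM and 0.21 at 50 nM. The 18 with a promoter entry but no tract had medians of 0.37 and 0.12, a difference that was not tested. A tract was counted only from the annotated first base, and pyrimidine runs across or shortly after it, as in RPL19 and RPS15, were not. The 18 genes are therefore not shown to lack a TOP tract. In the 300-base RefSeq windows, CCGGAAG, the core of an ETS-type site, was found on either strand at 34.2% of the members' starts and at 10.3% of all starts. AAGATGGC, the core of a YY1-type site, was found at 7.59% and 2.89%. TCTTTCC within 15 bases of the start on the gene's strand was found at 12.7% and 0.504%, and it can overlap the tract. A match of letters is not a bound site, and a missing match concerns this window only.

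Genes of other TOP mRNAs were taken from a list of translation factors and related genes, of which 18 of 19 had a row. At 25 nM 10 of them rose, EIF4B fell and 7 did not pass. At 50 nM 2 rose, 7 fell and 9 did not pass, and 13 of the 18 fell at 50 nM against 25 nM. Over all tested genes 26.3% rose and 25.8% fell at 25 nM, 29.2% rose and 31.5% fell at 50 nM, and 18.8% fell between the doses. The medians were 0.20 at 25 nM, -0.02 at 50 nM and -0.23 between the doses. EEF1A1, the elongation factor that delivers tRNA, stood at 1851, 1847 and 1822 FPKM in DMSO, 1793, 1840 and 1931 at 25 nM, and 1451, 1583 and 1599 at 50 nM. Libraries of 50 nM were below all others, and 25 nM surrounded DMSO. EEF1A1 gave 0.01 ± 0.05 at 25 nM (adjusted p = 0.88) and fell by 0.25 on the log2 scale at 50 nM (adjusted p = 0.0031).

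EEF2, the translocase, fell by 0.26 on the log2 scale at 50 nM (adjusted p = 0.0022) and gave 0.02 at 25 nM (adjusted p = 0.76). EIF4B, a helper of the cap-binding complex, fell at both doses, by 0.25 and 0.44 on the log2 scale (adjusted p = 0.0011 and 3e-05). EIF3E, an initiation factor subunit, and the poly(A)-binding PABPC1 fell by 0.31 and 0.23 on the log2 scale at 50 nM (adjusted p = 0.00056 and 0.00084). EEF1D, an exchange factor for EEF1A1, rose by 0.60 ± 0.06 and 0.72 ± 0.06 (adjusted p = 8.4e-05 and 1.6e-05). Its DMSO mean of 3.84 FPKM was the lowest of the 18 genes, and EIF3F was next at 27.0 FPKM. Under scaling by totals without the members and the mitochondrial genes, EEF1A1 at 50 nM against DMSO was -0.11, EEF2 -0.12 and PABPC1 -0.09, and none of these 3 passed. The difference between this list and the ribosomal protein genes was not tested.

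**Figure D5:**
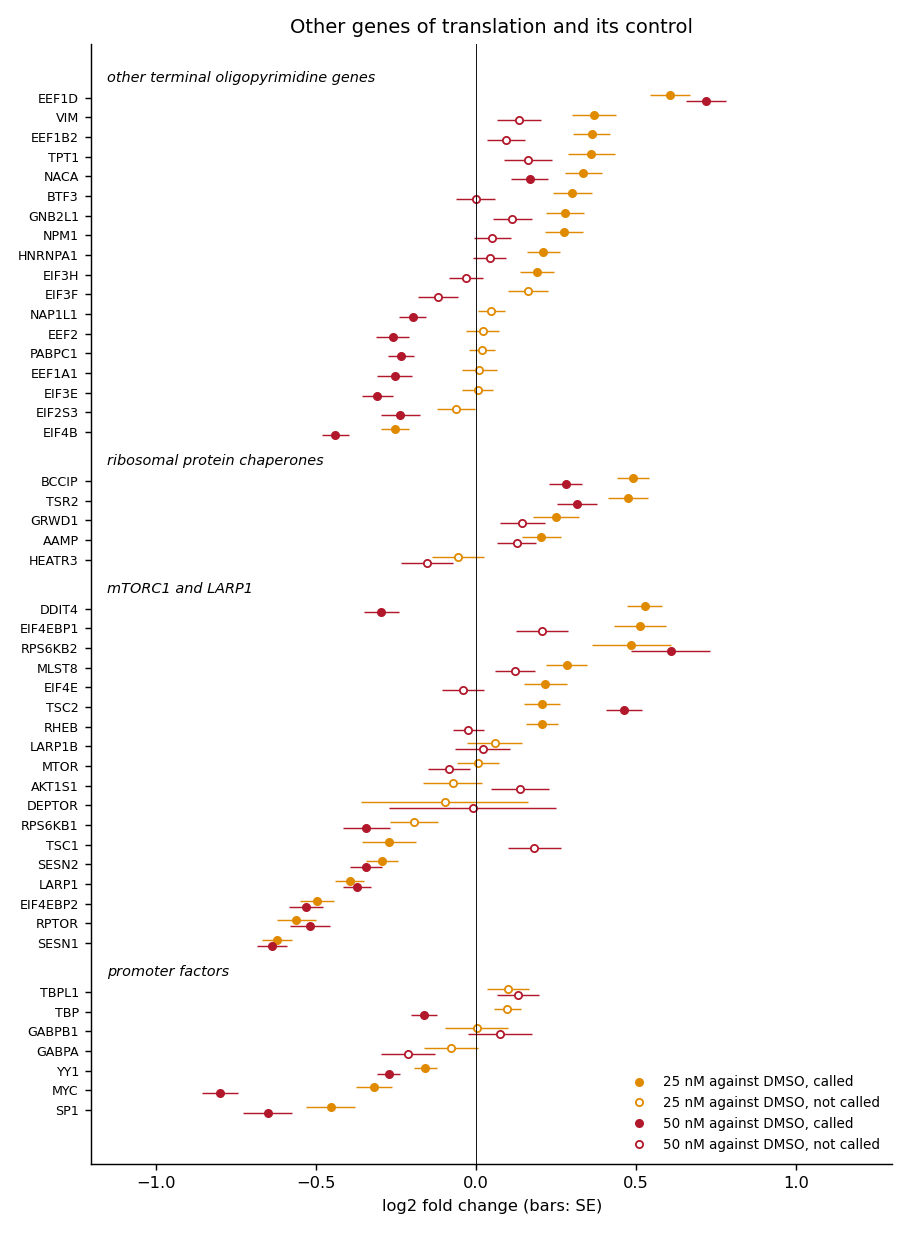
Log2 fold change against DMSO at 25 nM (orange) and 50 nM (red) of the tested genes of 4 lists: other TOP genes, chaperones of ribosomal proteins, mTORC1 and LARP1, and promoter factors; bars are the SE and filled points passed an adjusted p of 0.05. EEF1D, at a mean of 3.84 FPKM in DMSO, lies highest at 50 nM with 0.72, and MYC lies lowest with -0.80.

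Of 18 tested genes of mTORC1 and of TOP control, 7 rose and 6 fell at 25 nM, where 26.3% of all tested genes rose and 25.8% fell. At 50 nM 2 of the 18 rose and 7 fell, where 29.2% of all tested genes rose and 31.5% fell. LARP1, which binds the cap and the tract, stood at 35.6, 33.2 and 34.0 FPKM in DMSO, 26.6, 26.9 and 24.6 at 25 nM, and 26.2, 26.6 and 26.5 at 50 nM. Every piericidin A library was below every DMSO library, and the doses overlapped. LARP1 fell by 0.39 on the log2 scale at 25 nM and by 0.37 at 50 nM (adjusted p = 0.00013 and 1e-04).

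RPTOR, the subunit that recruits mTORC1 substrates, fell by 0.56 and 0.52 on the log2 scale (adjusted p = 0.00011 and 9.5e-05). SESN1, a stress-induced inhibitor of the pathway, fell by 0.62 and 0.64 (adjusted p = 1.6e-05 and 6.1e-06), and the translational repressor EIF4EBP2 fell by 0.50 and 0.53. TSC2, which restrains mTORC1 through RHEB, rose by 0.21 ± 0.06 and 0.46 ± 0.06 (adjusted p = 0.013 and 0.00012). DDIT4, an inducer of that restraint, rose at 25 nM by 0.53 ± 0.05 and fell at 50 nM by 0.30 on the log2 scale (adjusted p = 7.8e-05 and 0.0012), with 245, 238 and 237 FPKM in DMSO, 351, 353 and 334 at 25 nM, and 181, 208 and 199 at 50 nM. None of the 3 groups of DDIT4 libraries overlapped.

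Dedicated chaperones escort single ribosomal proteins to the assembling subunit. Of 5 such genes, 4 rose at 25 nM and 2 at 50 nM, and none fell, where 26.3% of all tested genes rose at 25 nM and 29.2% at 50 nM. BCCIP rose by 0.49 ± 0.05 and 0.28 ± 0.05 (adjusted p = 7.6e-05 and 0.0011), and TSR2, the partner of RPS26, rose by 0.47 ± 0.06 and 0.32 ± 0.06 (adjusted p = 0.00029 and 0.002). Of 7 transcription factors known at promoters of ribosomal protein genes, none rose, 3 fell at 25 nM and 4 fell at 50 nM, where 25.8% and 31.5% of all tested genes fell. MYC stood at 78.2, 69.1 and 72.6 FPKM in DMSO, 57.0, 59.8 and 59.3 at 25 nM, and 40.3, 44.8 and 41.1 at 50 nM. Its 3 groups did not overlap, and MYC fell by 0.32 on the log2 scale at 25 nM and 0.80 at 50 nM (adjusted p = 0.0015 and 5.2e-06). SP1 fell by 0.45 and 0.65 (adjusted p = 0.0011 and 9.2e-05), and YY1 fell by 0.16 and 0.27 (adjusted p = 0.0057 and 2e-04).

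Introns of ribosomal protein genes carry small nucleolar RNAs (snoRNAs), which guide the modification of rRNA. The table had rows for 6 of them inside 5 members, and their fragments were few. Together the 6 held 30, 26 and 23 fragments in the DMSO libraries, 57, 54 and 55 at 25 nM, and 99, 76 and 95 at 50 nM. No groups overlapped, with DMSO lowest and 50 nM highest. Scaled to library size this was 0.950 ± 0.155 CPM for the DMSO libraries, 2.17 ± 0.114 CPM for those of 25 nM and 3.57 ± 0.505 CPM for those of 50 nM (SD, n = 3 each), 2.28 times the DMSO level at 25 nM and 3.76 times at 50 nM. Each comparison gave an exact two-sided permutation p = 0.1, the smallest possible, and 0.1 after adjustment over the 3.

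SNORD83A, in an intron of RPL3, stood at 1.94, 1.97 and 2.16 FPKM in DMSO, 4.69, 3.67 and 7.85 at 25 nM, and 8.55, 9.33 and 11.6 at 50 nM. SNORD83A rose by 1.3 at 25 nM and 2.21 at 50 nM (adjusted p = 0.0023 and 9e-05), while its host RPL3 gave 0.25 and -0.01. SNORA33 and SNORA66, in introns of RPS12 and RPL5, rose by 1.43 and 1.11 at 25 nM and by 1.88 and 1.63 at 50 nM. SNORD14A, in RPS13, gave 0.77 at 25 nM (adjusted p = 0.29) and rose by 1.91 at 50 nM (adjusted p = 0.018). SNORD101, in RPS12, gave 1.17 and 1.28 (adjusted p = 0.26 and 0.21), neither of which passed. These rows lie on the strand of their hosts, so fragments of the snoRNA and of the unspliced host intron cannot be told apart, and the snoRNA genes were named after their values were seen.

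Processed pseudogenes of the family are near-identical copies of the mRNAs. The log2 table held 109 pseudogenes of the family, processed or of another class. They took 0.129% ± 0.00302 of fragments in the DMSO group, 0.158% ± 0.0113 in the 25 nM group and 0.15% ± 0.0147 in the 50 nM group (SD, n = 3 each). The 4 pseudogenes of RPS2 held the most, 51605 fragments over the DMSO libraries. Of the 88 that were tested, 20 rose and 3 fell at 25 nM, and 32 rose and 1 fell at 50 nM, with medians of 0.33 and 0.40. Over all tested genes 26.3% rose at 25 nM and 29.2% at 50 nM. The larger pseudogene share at the 2 doses, as a difference from DMSO, gave an exact two-sided permutation p = 0.1 each (0.15 after adjustment over 3).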

How the data were processed

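RNA of 9 ACHN libraries was sequenced on an Illumina platform, with 3 libraries for each of 3 groups taken from the sample titles. The deposited values are FPKM for 30673 genes, made by the authors, and log2 FPKM, which the authors deposited for 18859 genes, all above 0 in each library, without adding a pseudocount. The genome build was hg38, per the submitters' processing notes. For the aligner, counter, annotation, RNA selection and strandedness, nothing is given in the sources used here. This FPKM table is named for read counts but holds no whole numbers. For the 18859 genes, FPKM times gene length gave whole multiples of a single step per library (within 0.01 of a whole number). This recovered the fragments used for depth and shares.

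The test covered 15541 genes that reached 0.5 FPKM in 3 or more libraries, on log2(FPKM + 0.1) with limma 3.58.1 in R 4.3.3 (lmFit, eBayes with trend and robust), with all 9 libraries and group as the only term. Adjustment followed Benjamini and Hochberg over every tested gene, and calls were made under 0.05. The pseudocount shrinks fold changes of low genes. Every adjusted p of a single gene comes from this limma fit, SE is that of the fit, and shares were compared by exact permutation tests over libraries in scipy 1.17.1. The fit was tested on simulated data. The members and the gene lists were chosen with earlier results of these data known, so no list test was made.

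Genes were named by a rule: the 5 largest and 5 smallest fold changes in each comparison, the 5 highest and 5 lowest levels, every member that did not pass against DMSO, the paralogs, stalk, 5S and fusion genes, and in other lists up to 4 genes with the smallest p and 1 of the other direction. RPL23A, RPL38, RPS6, RPS15, RPS16, RPS24, LARP1, EEF1A1, EEF2, PTPN11 and the snoRNAs were named outside it, after their values were seen. Some genes that the rule names are not reported here by name or drawn in the plots of single genes, and counts include them. Start sequences came from the RefSeq promoter table (GRCh38.p14, 250 bases before to 50 after the start), and transcript properties came from GENCODE release 29, taking the APPRIS principal transcript, then the longest coding one, then the shortest. Replicate numbers were checked for pairing: correlations of deviations between same-numbered libraries lay between -0.047 and 0.079. These values gave no clear sign of pairing, but they cannot exclude that same-numbered libraries share a culture or a day. Alternatives covered the pseudocount, the filter, 2 scalings, the variance model, the libraries fitted, voom on recovered fragments, a replicate block and leaving out each library.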

Additional observations from a re-analysis of the deposited data

How the results depend on the processing

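At 25 nM against DMSO, 70 to 75 members rose with a library left out, 0 or 1 fell (RPL6, without 25 nM replicate 3), and the median lay between 0.30 and 0.43. At 50 nM against DMSO, 24 to 47 members were called with a library left out, 23 to 47 higher and 0 or 1 lower. Scaling by totals without the members and the mitochondrial genes called 66 there, 66 higher and 0 lower, with a median of 0.34, and put 79 of the 80 tested members above 0, against 67 as reported. RPL7 at 50 nM against DMSO, below 0 as reported, was called higher at 0.13, and RHEB at 50 nM against DMSO was called higher at 0.12. This scaling moves all genes upward by construction. The share of fragments in the members differed by 1.39 points at 50 nM with mitochondrial genes out of the denominator.

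At 50 nM against 25 nM, 11 to 38 members were called with a library left out, 0 or 1 higher and 11 to 38 lower. Calls there numbered 20 with 19 lower without a filter, 14 with 13 lower under fragment totals, 7 with 6 lower under totals without members and mitochondrial genes, 12 with 0 higher and 12 lower when only the 2 groups were fitted, and 51 with 50 lower under voom. The cause was not tested. With a replicate block 75 and 42 members were called against DMSO at 25 and 50 nM, and 27 between the doses, 0 higher and 27 lower. The number of libraries limits all tests, and the low-level members are limited by their fragments.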

Other observations

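Mitochondrial ribosomal proteins, which build the separate ribosome that translates the mitochondrial genome, were counted beside their cytosolic counterparts. Of 75 tested genes, 53 rose, 1 fell and 21 did not pass at 25 nM against DMSO in limma. At 50 nM against DMSO 39 rose, 12 fell and 24 did not pass, and at 50 nM against 25 nM 5 rose and 23 fell. Over all tested genes 26.3% rose at 25 nM, 29.2% rose and 31.5% fell at 50 nM, and 18.8% fell between the doses. The medians were 0.33, 0.22 and -0.13 in that order, against 0.02, 0.0049 and -0.01 over all tested genes. The 77 genes held 0.288% ± 0.00103 of fragments in the DMSO group, 0.346% ± 0.0217 in the 25 nM group and 0.339% ± 0.00742 in the 50 nM group (SD, n = 3 each). Every piericidin A library was above every DMSO library, and the doses overlapped. Replicate 3 of the 25 nM group was the highest in this share as well, at 0.371%.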
